A study of Danio rerio with 6 samples.

Results

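Collecting ducts of irradiated adult zebrafish were compared with ducts of unirradiated fish on 3' expression arrays. The comparison used 4 of the 6 arrays of the study, chosen by sample title. In both groups the fish carried the transgene Tg(jam1a:EGFP), which drives a green fluorescent protein from the promoter of the junction gene now named f11r.1, and the ducts were dissected by that fluorescence. There were 2 arrays of ducts without irradiation and 2 of ducts from fish given 25 Gy of X-rays. Each array held RNA pooled from 5 fish, and the labels call the pools of a group independent. The other 2 arrays held whole kidney of fish with the same transgene, and their levels are given beside some genes as a description. The time from irradiation to dissection, the exact age and the sex were not given in the sources used here.

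Ionising radiation breaks DNA, and kinases that sense the breaks start a transcriptional response. It turns on genes that stop the cell cycle, aid repair or start cell death, together with mdm2, whose product dampens the response again. In fish the kidney is also the organ where adult blood forms, and dividing blood precursors are among the cells most sensitive to radiation. Collecting ducts are the last segment of the renal tubule and run through this blood-forming tissue.

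Levels are log2 values made by robust multiarray averaging (RMA), so a step of 1 is a 2-fold difference. They are given in the order replicate 1, replicate 2. A probe set is the group of probes designed for a transcript. Of 15502 probe sets tested, 88 were higher after irradiation (0.568%) and 129 were lower (0.832%) at an adjusted p under 0.05. In all 217 the groups did not overlap, beside 56.8% of all probe sets tested, so the lack of overlap adds little to the calls. Of these 217, 84 of the higher and 125 of the lower changed at least 2-fold. Changes of at least 2-fold without overlap, a count with no test, were seen for 399 probe sets upward (2.57%) and 295 downward (1.9%). Without unirradiated replicate 1 these were 604 and 401, and without unirradiated replicate 2 they were 303 and 314, with more lower than higher. With only 1 array left in a group, lack of overlap is easier to reach, so these counts do not compare directly with 399 and 295. The plot of all probe sets shows the calls across the range of levels. With 2 arrays a side, the smallest p of an exact permutation test is 0.333. The p-values therefore come from limma, which borrows the spread of all probe sets.

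**Figure D1:**
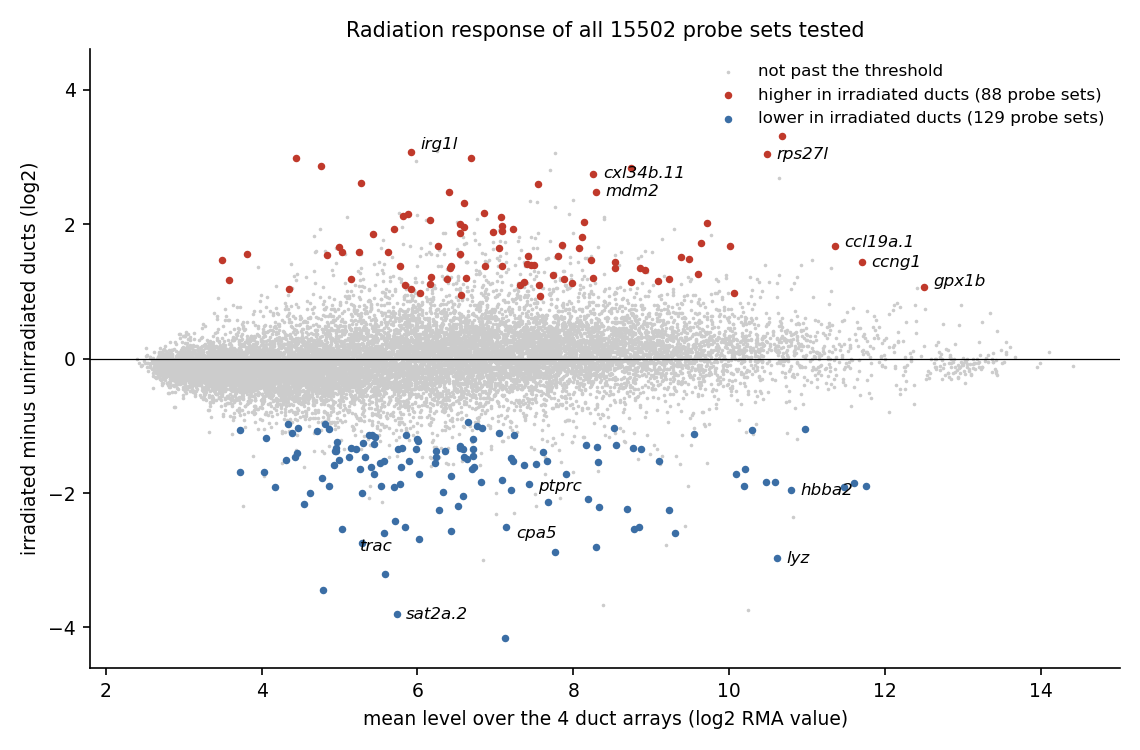
Difference between irradiated and unirradiated ducts (vertical axis, log2) against the mean level over the 4 duct arrays (horizontal axis, log2 RMA value), 1 point per probe set. Red points are the 88 probe sets higher and blue points the 129 lower at an adjusted p under 0.05, and calls occur from low to high levels, with lyz and rps27l among those at high levels.

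The counts past the threshold depended on which arrays entered the fit. The weight limma gave to the spread of all probe sets (prior degrees of freedom) also changed. It was 3.55 with all 4 duct arrays, 3.16 without either unirradiated array and 7.75 without either irradiated one. With an array left out, the spread came only from the 2 arrays of the other group, besides what limma borrowed. The part of this spread and of the weight in the counts was not tested. Without unirradiated replicate 1 no probe set passed (limma, 3383 at an unadjusted p under 0.05), and without unirradiated replicate 2 none passed either (2326). Without irradiated replicate 1 the counts were 316 higher and 276 lower, and without irradiated replicate 2 they were 272 and 279. With the spread estimated over all 6 arrays, 12 higher and 14 lower passed. The scale is relative, since RMA gives every array the same distribution. The hybridisation controls, spiked in at fixed amounts, averaged 10.66 and 11.15 on the unirradiated arrays and 9.39 and 9.64 on the irradiated arrays. Centring on them added 1.39 to every log2 difference and gave 14723 probe sets higher and 36 lower, with a median over all probe sets of 1.34 in place of -0.05. The prior degrees of freedom of that fit were infinite, so limma used 1 common spread for all probe sets. Its counts of calls therefore do not compare with those of the other fits. A fall smaller than 1.39, such as that of mki67, incenp, mad2l1, nrros or lcp1 below, turns into a rise on that scale. All changes below are therefore relative to the rest of the transcripts on an array. Array medians lay between 5.82 and 5.85, and a level under them is not shown to be above background. The unirradiated mean lay under the medians for 37 of the 88 higher probe sets, and the irradiated mean for 71 of the 129 lower ones, so the size of those changes is uncertain. Both means lay under the medians for 7 of the higher and 25 of the lower, so there neither group is shown to be above background.

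The tissue label was checked next. The reporter's own gene f11r.1 read 11.54 and 11.39 in unirradiated ducts, 11.59 and 11.56 in irradiated ducts, and averaged 10.28 ± 0.12 (SD, n = 2) in whole kidney. The ammonia transporter gene rhcgb read 10.99 and 10.81, then 11.32 and 10.87, and only 7.07 and 8.03 in whole kidney. The transcription factor gene gata3, a marker of the fish distal tubule and duct, read 9.47 and 9.53, then 10.40 and 10.04, against 6.86 and 6.23 in kidney. All duct arrays thus read above both kidney arrays for the 3 genes, and none of them passed the test after irradiation (f11r.1 0.11 ± 0.14 SE on the log2 scale). A control probe set for enhanced green fluorescent protein read 6.49 and 6.41 in unirradiated and 6.21 and 6.14 in irradiated ducts, with 6.05 and 6.21 in kidney. Irradiated ducts and kidney overlapped on it, so it did not separate those tissues.

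Genes that DNA damage turns on held the most higher calls of the 32 gene lists examined, and the inflammatory list came next with 4 of 38. The lists were written with earlier results of these data known, so this rank is no independent support. Of 38 measured damage response genes, 5 rose and 0 fell, beside 47 of 8781 genes (0.535%) higher and 54 (0.615%) lower in all. Each gene is represented by its probe set of highest mean. These shares are the background for the calls of every list below. The median of the damage response list was 0.14 on the log2 scale against -0.02 for all genes. The ubiquitin ligase gene mdm2 read 7.21 and 6.89 in unirradiated and 9.51 and 9.56 in irradiated ducts, with 7.90 and 8.01 in kidney. Both irradiated arrays stood well above the other 4. The difference was 2.48 ± 0.17 (95% interval 2.07 to 2.90, 5.60-fold, adjusted p = 0.0119). The adjusted p was 0.0514 without unirradiated replicate 1 and 0.0987 without unirradiated replicate 2, with differences of 2.64 and 2.33.

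The ribosomal protein gene rps27l, induced by DNA damage in mammals, showed the largest rise of the list. It read 8.78 and 9.15 before and 11.97 and 12.02 after irradiation, a difference of 3.04 ± 0.18 (8.20-fold, adjusted p = 0.00959). Among 72 ribosomal protein genes it was the only call, and the list median was -0.09. The cyclin G1 gene ccng1, also induced by DNA damage in mammals, rose from 11.09 and 10.89 to 12.40 and 12.42 (1.43 ± 0.15, adjusted p = 0.0255). The gene phlda3, whose product restrains Akt signalling, rose from 5.68 and 5.19 to 7.58 and 7.94 (2.32 ± 0.23, adjusted p = 0.0233). The initiator caspase gene casp8, which starts death receptor apoptosis, rose from 6.32 and 5.72 to 8.10 and 8.16 (2.11 ± 0.23, adjusted p = 0.0264). For all 5 genes the irradiated arrays did not overlap the unirradiated ones, as was so for every probe set that passed.

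The other 33 members did not pass. Among them bbc3, the gene of the death-inducing protein Puma, read 7.0 and 6.41 against 8.69 and 8.03 (1.65 ± 0.30, adjusted p = 0.0674). The death receptor gene fas differed by 0.91 ± 0.24 and the forkhead factor gene foxo3b by 1.0 ± 0.20. The gene pmaip1, which encodes the death-inducing protein Noxa, had the lowest value of the list (-0.88 ± 0.20, adjusted p = 0.101). The growth arrest genes gadd45aa and gadd45ba differed by 0.19 ± 0.14 and 0.01 ± 0.32, and the phosphatase gene ppm1da, a brake on damage signalling, by 0.36 ± 0.14. In all, 7 members changed at least 2-fold upward without overlap and 0 downward, beside 2.05% and 1.71% of all genes.

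Damage repair and cell death genes gave 1 and 2 calls. Of 60 genes of damage signalling and repair, 1 rose and 0 fell, with a median of -0.14. It was parp3, an ADP-ribosyltransferase that acts at DNA breaks, which went from 6.44 and 6.10 to 8.01 and 8.37 (1.92 ± 0.20, adjusted p = 0.0256). Repair members with values below zero included the replication protein gene rpa2 (-0.68 ± 0.16) and the Fanconi gene fanci (-0.95 ± 0.18), neither past the test. For fanci both duct groups averaged under the array medians, and 31 of the 60 members lay under them on all 4 duct arrays. Of 48 apoptosis genes 2 rose, casp8 and bcl2l1, and 0 fell, beside 0.535% and 0.615% of all genes, with a median of 0.25. The gene bcl2l1, whose main product protects mitochondria from death signals, went from 6.89 and 6.71 to 8.07 and 7.81 (1.14 ± 0.17, adjusted p = 0.0488). The receptor gene tnfrsf1a (1.72 ± 0.33, adjusted p = 0.0757) and the death ligand gene tnfsf10 (1.46 ± 0.29, adjusted p = 0.0785) lay just outside the threshold.

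A few inflammatory and interferon genes rose. Of 38 inflammatory and acute phase genes, 4 rose and 1 fell, beside 0.535% and 0.615% of all genes, with a median of 0.14. The gene irg1l encodes the enzyme that makes itaconate, a metabolite of activated macrophages and inflamed fish epithelium. It read 4.14 and 4.63 in unirradiated ducts, under the array medians, and 7.45 on both irradiated arrays (3.07 ± 0.20, 8.37-fold, adjusted p = 0.0117). Whole kidney read 5.61 and 6.49, between the duct groups. The chemokine gene cxl34b.11 rose from 6.96 and 6.81 to 9.51 and 9.75 (2.75 ± 0.16, adjusted p = 0.00959). Kidney read 5.74 and 5.21, so this chemokine was highest in irradiated ducts and lowest in kidney.

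A further chemokine gene, ccl19a.1, rose from 10.84 and 10.21 to 12.12 and 12.27 (1.67 ± 0.24, adjusted p = 0.0467), against 8.38 and 8.22 in kidney. The prostaglandin synthase gene ptgs2a rose from 5.66 and 5.54 to 6.84 and 6.59 (1.11 ± 0.16, adjusted p = 0.0469). The member that fell was tnfaip8l2a, a negative regulator of immune receptor signalling in mammals, with 6.30 and 6.65 before and 4.30 and 4.87 after (-1.89 ± 0.24, adjusted p = 0.0383). The acute phase gene saa split the irradiated group, with 4.88 on replicate 1 and 8.68 on replicate 2 against 4.89 and 4.75 in unirradiated ducts, and did not pass.

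Of 30 interferon and antigen presentation genes 2 rose and 0 fell, beside 0.535% and 0.615% of all genes, with a median of 0.13. The ubiquitin-like modifier gene isg15 went from 8.96 and 8.45 to 10.62 and 10.81 (2.01 ± 0.21, 4.02-fold, adjusted p = 0.0259). The antiviral exonuclease gene isg20 went from 5.66 and 5.90 to 8.05 and 7.83 (2.16 ± 0.17, 4.46-fold, adjusted p = 0.0160). Neither group overlapped the other for these 2 genes, as for every probe set that passed. The interferon signalling factor gene irf9 (0.78 ± 0.16, adjusted p = 0.0808) and irf1b (0.54 ± 0.16, adjusted p = 0.137) did not pass.

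Protein folding and oxidative stress lists gave few calls. Of 66 heat shock and unfolded protein genes 2 rose and 0 fell, beside 0.535% and 0.615% of all genes, with a median of 0.17. The secreted endoplasmic reticulum stress factor gene manf rose from 5.87 and 5.65 to 7.15 and 7.5 (1.56 ± 0.18, adjusted p = 0.0325), and its second probe set also passed (1.66 ± 0.23). The chaperone gene hsp90aa1.2 rose from 8.24 and 8.14 to 9.36 and 9.69 (1.34 ± 0.17, adjusted p = 0.0377). Its other probe set gave 1.79 ± 0.27 and did not pass (adjusted p = 0.0517). Of 43 oxidative stress genes, only the glutathione peroxidase gene gpx1b rose and 0 fell, with a median of 0.06. It read 11.92 and 12.02 before and 12.95 and 13.10 after (1.06 ± 0.14, adjusted p = 0.0427).

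**Figure D2:**
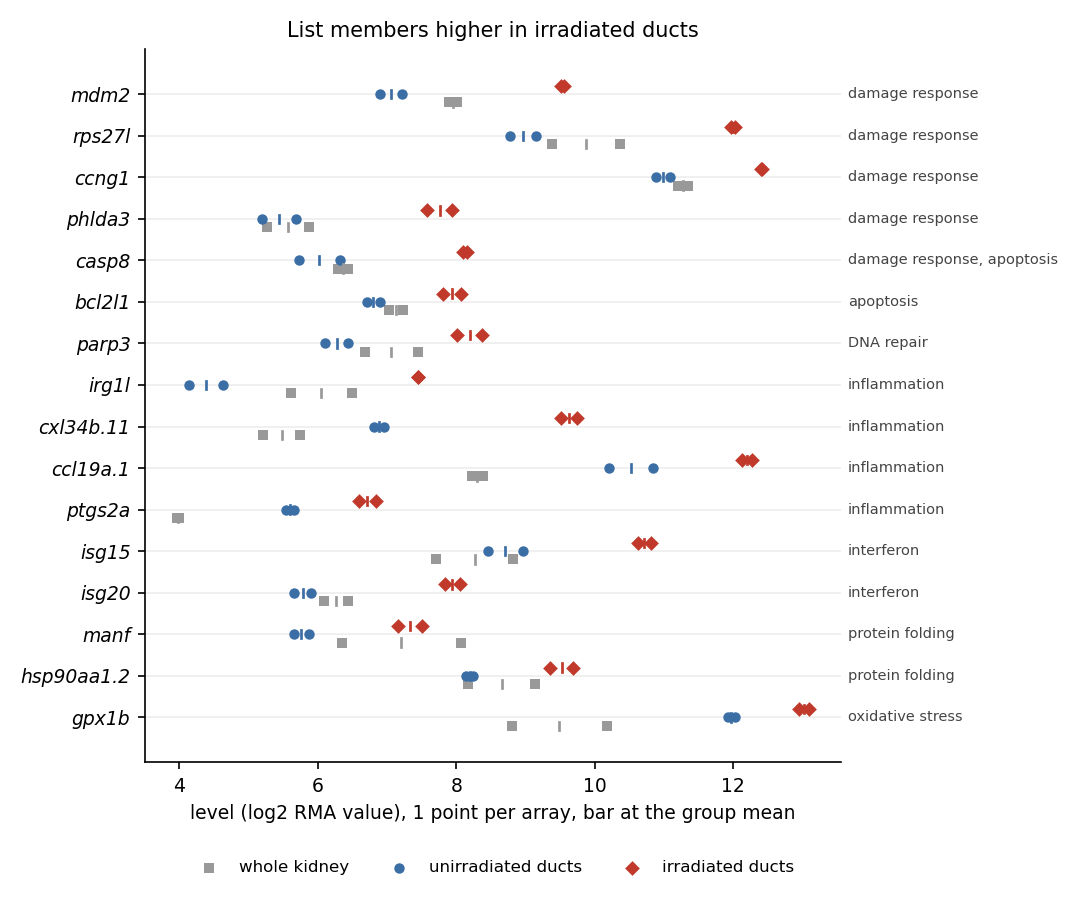
Levels (horizontal axis, log2 RMA value) of 16 genes that rose, from the damage response, apoptosis, repair, inflammation, interferon, folding and oxidative stress lists, 1 point per array with a bar at the group mean. Red diamonds are irradiated ducts, blue circles unirradiated ducts and grey squares whole kidney. For every gene shown both irradiated arrays lie to the right of both unirradiated arrays, as in all 88 higher calls.

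Myeloid genes held more lower calls than any other list. Of 30 measured myeloid genes, 10 fell and 0 rose, beside 0.615% and 0.535% of all genes, with a list median of -0.55. The median level of the list was 9.08 and 8.83 on the unirradiated arrays, 8.09 and 8.63 on the irradiated arrays, and 9.79 and 9.96 in kidney, so leukocyte RNA was well detected in the dissected ducts. In bulk samples of this kind, fewer cells of a type and less RNA per cell cannot be told apart. The lysozyme gene lyz read 11.99 and 12.20 in unirradiated and 9.20 and 9.05 in irradiated ducts, with 13.17 and 13.18 in kidney. It fell by 2.97 on the log2 scale (SE 0.16, 7.86-fold lower, adjusted p = 0.00959).

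The carboxypeptidase gene cpa5, a mast cell marker in zebrafish, fell from 8.18 and 8.60 to 5.92 and 5.87 (-2.5 ± 0.18, adjusted p = 0.0157), with a mean of 10.82 ± 0.40 (SD, n = 2) in kidney. The gene spi1b, encoding the myeloid master regulator Pu.1, fell from 8.18 and 8.19 to 5.87 and 6.57 (-1.96 ± 0.25, adjusted p = 0.0377). Its other probe set fell too (-1.27 ± 0.18, adjusted p = 0.0461). The pan-leukocyte phosphatase gene ptprc, also called cd45, went from 8.41 and 8.31 to 6.34 and 6.67 (-1.86 ± 0.17, adjusted p = 0.0210). In each of these 4 genes irradiated ducts were lowest, unirradiated ducts stood between and whole kidney was highest, with no overlap of the 3 groups.

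The other 6 that fell had smaller differences. They were the actin regulators wasb (-1.57 ± 0.17), coro1a (-1.52 ± 0.15) and lcp1 (-1.33 ± 0.19), the granulocyte factor cebp1 (-1.48 ± 0.14), the NADPH oxidase subunit ncf1 (-1.47 ± 0.16) and the lipoxygenase alox5b.3 (-1.51 ± 0.22), with adjusted p between 0.0225 and 0.0488. For alox5b.3 both duct groups averaged under the array medians. Second probe sets of cebp1 and coro1a stayed under the array medians in all 4 duct arrays and differed by -0.02 ± 0.14 and -0.25 ± 0.19. Among the leading falls, which were chosen by direction, were leukocyte genes outside the list. The leukotriene pathway gene alox5ap fell from 6.95 and 7.70 to 5.27 and 5.41 (-1.99 ± 0.27, adjusted p = 0.0426). The granule release gene unc13d fell from 6.48 and 6.83 to 4.79 and 4.69 (-1.91 ± 0.17, adjusted p = 0.0210).

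Not every member of the myeloid list followed. The neutrophil peroxidase gene mpx read 10.87 and 9.79 before and a mean of 11.80 ± 0.28 (SD, n = 2) after irradiation, a difference of 1.47 ± 0.37 that did not pass (adjusted p = 0.111). The list members cd68 (0.35 ± 0.17), lgmn (0.60 ± 0.21) and marco (0.17 ± 0.47) did not pass either. In all, 13 members changed at least 2-fold downward without overlap and 2 upward, beside 1.71% and 2.05% of all genes. The leukocyte genes ptpn6 and laptm5 lay just outside the threshold at -1.36 ± 0.22 and -1.45 ± 0.23.

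Lymphoid, thrombocyte and erythroid lists gave 1 or 2 calls each. Of 13 lymphoid genes 2 fell and 0 rose, beside 0.615% and 0.535% of all genes, with a median of -0.58. The T cell receptor alpha constant gene trac went from 7.59 and 7.14 to 4.59 and 4.75 (-2.69 ± 0.20, adjusted p = 0.0156). Its other probe sets gave -0.86 ± 0.14 and -0.03 ± 0.16 and did not pass. The chemokine receptor gene cxcr4b, which holds blood cells near sources of Cxcl12, went from 9.01 and 8.48 to 6.58 and 6.65 (-2.13 ± 0.21, adjusted p = 0.0233), with 10.22 and 9.51 in kidney. The B cell linker gene blnk had the opposite sign (1.03 ± 0.33, adjusted p = 0.160).

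Of 8 thrombocyte genes, itga2b fell, which encodes the fibrinogen receptor subunit known as CD41. It read 5.39 and 5.85 before and 3.80 and 3.13 after irradiation, with 6.53 and 6.33 in kidney (-2.16 ± 0.28, adjusted p = 0.0385). Both duct groups averaged under the array medians. The list median was -0.56. Of 29 erythroid and haem genes 1 fell, the beta globin gene hbba2, from 11.41 and 12.14 to 9.99 and 9.64 (-1.96 ± 0.28, adjusted p = 0.0459). The alpha globin gene hbaa1 read 13.19 and 13.66 against 13.77 and 13.56, and the groups overlapped. The erythroid regulator klf1 (-0.02 ± 0.40) and the haem synthesis gene alas2 (0.93 ± 0.44) did not pass, and the list median was 0.01.

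Blood stem and progenitor genes had a median of -0.20 over 27 members. The 2 that fell, cxcr4b and itga2b, are also counted in the lymphoid and thrombocyte lists. The core factor subunit gene cbfb (-0.81 ± 0.14, adjusted p = 0.0656) and the adhesion gene jam2a (-0.89 ± 0.16, adjusted p = 0.0677) came next and did not pass. Among genes of the niche, the cells that hold blood stem cells, no call was made. Of 49 niche ligand and adhesion genes 0 passed, with a median of -0.02. The chemokine gene cxcl12a, ligand of the cxcr4b product, read 10.64 and 10.80 before and 10.64 and 10.75 after irradiation (-0.03 ± 0.15). Its paralogue cxcl12b differed by 0.65 ± 0.16 (adjusted p = 0.107), the Notch ligand gene jag1b by 0.75 ± 0.19 and the lymphatic growth factor gene vegfc by -0.77 ± 0.14, none past the threshold.

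Cell division genes lay mostly below zero, many of them at low levels. Of 59 mitosis genes 3 fell and 0 rose, beside 0.615% and 0.535% of all genes. In the list 53 had a value below zero (beside 4564 of all 8781), and the median was -0.51. In 44 of them both irradiated arrays lay under both unirradiated arrays, beside 29.5% of all genes, and in 1 above, beside 26%. At the same time 35 members lay under the array medians on all 4 duct arrays. The proliferation marker gene mki67 fell from 7.10 and 6.77 to 5.65 and 5.45 (-1.38 ± 0.18, adjusted p = 0.0385). The centromere protein gene incenp fell from 5.74 and 5.90 to 4.35 and 4.62 (-1.33 ± 0.16, adjusted p = 0.0360), and the spindle checkpoint gene mad2l1 from 6.54 and 6.29 to 5.36 and 5.20 (-1.14 ± 0.16, adjusted p = 0.0461). For incenp both duct groups averaged under the array medians, and for mki67 and mad2l1 the irradiated group did.

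Whole kidney was higher than either duct group for the 3 genes. Other probe sets of mki67 and incenp, all under the array medians, differed by between -0.09 and 0.08. The kinase gene cdk1 had a larger difference, -1.45 ± 0.32, and missed the threshold (adjusted p = 0.0927). Of 51 replication and G1/S genes 0 passed, 46 had a value below zero and the median was -0.32. Below zero lay 4564 of all 8781 genes, and 23 of the 51 members lay under the array medians on all 4 duct arrays. The replicative helicase gene mcm4 read 6.91 and 6.74 against 5.75 and 6.03 (-0.94 ± 0.17, adjusted p = 0.0660). The cyclin gene ccna2 differed by -0.95 ± 0.15 (adjusted p = 0.0545) and the licensing inhibitor gene gmnn, with the opposite sign, by 0.74 ± 0.14 (adjusted p = 0.0738).

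**Figure D3:**
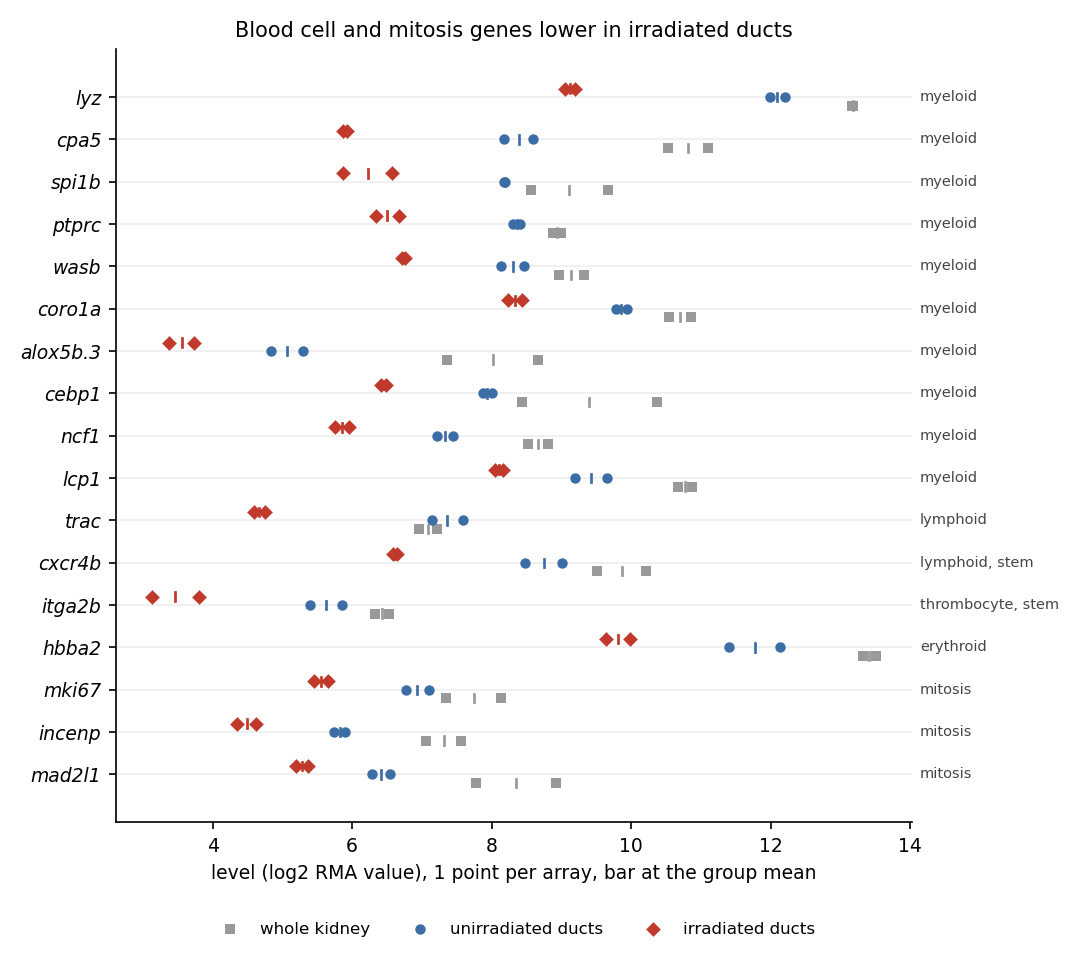
Levels (horizontal axis, log2 RMA value) of 17 blood cell and mitosis genes that fell, 1 point per array with a bar at the group mean. Red diamonds are irradiated ducts, blue circles unirradiated ducts and grey squares whole kidney. For every gene shown both irradiated arrays lie to the left of both unirradiated arrays, as in all 129 lower calls.

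Epithelial genes of the duct itself gave 1 call. Of 46 distal tubule and collecting duct genes 0 rose and 1 fell, and the list median was 0.18. The median level of this list was 9.04 and 8.94 on the unirradiated arrays, 9.28 and 8.84 on the irradiated arrays, and 6.97 and 7.70 in kidney, so duct markers stood above kidney in both groups. The call was the calcium pump gene atp2b4, at 7.33 and 7.74 before and 5.72 and 6.13 after irradiation (-1.61 ± 0.22, adjusted p = 0.0427). Its other probe sets gave -0.76 ± 0.18 and 0.57 ± 0.24, so the sign differed between its probe sets. The forkhead factor gene foxa3 (1.05 ± 0.19, adjusted p = 0.0660) and the ammonia transporter gene rhbg (0.84 ± 0.20, adjusted p = 0.105) did not pass, nor did the aquaporin gene aqp3a, whose unirradiated arrays read 5.86 and 4.68 (1.52 ± 0.40, adjusted p = 0.120).

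Of 65 junction, envelope and keratin genes 0 passed, with a median of 0.10. The nearest was ctnna1, the gene of the adherens junction protein alpha-catenin (0.91 ± 0.14, adjusted p = 0.0525). Among 34 proximal tubule genes 0 passed, with a median of 0.14 that was -0.14 without unirradiated replicate 1 and 0.51 without unirradiated replicate 2. Among 6 podocyte genes 0 passed (median -0.18), and among 13 interrenal and chromaffin genes 0 (median -0.25). The amine synthesis gene ddc read 11.99 and 12.23 against 10.64 and 6.09, so the irradiated arrays differed widely (-3.74 ± 1.37, adjusted p = 0.191). Among 60 matrix and matrix protease genes 0 passed, while 7 changed at least 2-fold upward without overlap and 1 downward, beside 2.05% and 1.71% of all genes. The laminin gene lamc1 differed most in that list, at 7.87 and 6.25 against 8.77 and 9.08 (1.87 ± 0.51, adjusted p = 0.127), with a wide gap between the unirradiated arrays.

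Some skeletal muscle transcripts were detected in the dissected ducts, and the list stood higher in the unirradiated group. Of 34 skeletal muscle genes 0 passed, yet 31 had a value below zero (beside 4564 of all 8781) and the median was -0.55. On all 4 duct arrays 14 members lay under the array medians. The list's median level was 5.91 and 6.75 on the unirradiated arrays, 5.54 and 5.33 on the irradiated arrays, and 5.01 and 4.91 in kidney. The irradiated values lay under the array medians. The muscle actin gene acta1a read 8.78 and 7.99 against 5.25 and 6.94 (-2.29 ± 0.57, adjusted p = 0.111). The list median was -0.91 without unirradiated replicate 1 and -0.25 without unirradiated replicate 2. Its part in the other results was not tested. Of 19 smooth muscle and stroma genes and 14 endothelial genes 0 passed, with medians of -0.11 and -0.14.

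Stress and metabolic lists were largely without calls. Of 46 immediate early genes 0 passed (median -0.11), although nr4a1 (-1.59 ± 0.34), klf11a (-1.5 ± 0.24) and socs3b (1.39 ± 0.40) each differed by more than 2-fold. Of 32 circadian clock genes 0 passed (median 0.01), and nr1d2a, a repressor of the clock, read 6.23 and 4.58 against 7.49 and 7.03 (1.86 ± 0.53). Of 77 oxidative phosphorylation genes 0 passed, and 60 had a value above zero (beside 4217 of all 8781) with a median of 0.11. In 35 of them both irradiated arrays lay above both unirradiated ones, beside 26% of all genes, and in 5 below, beside 29.5%. Of 41 proteasome subunit genes 1 fell and 0 rose, with a median of 0.19. It was the lid subunit gene psmd6, at 10.73 and 11.17 before and 9.45 and 9.02 after irradiation (-1.71 ± 0.23, adjusted p = 0.0426).

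**Figure D4:**
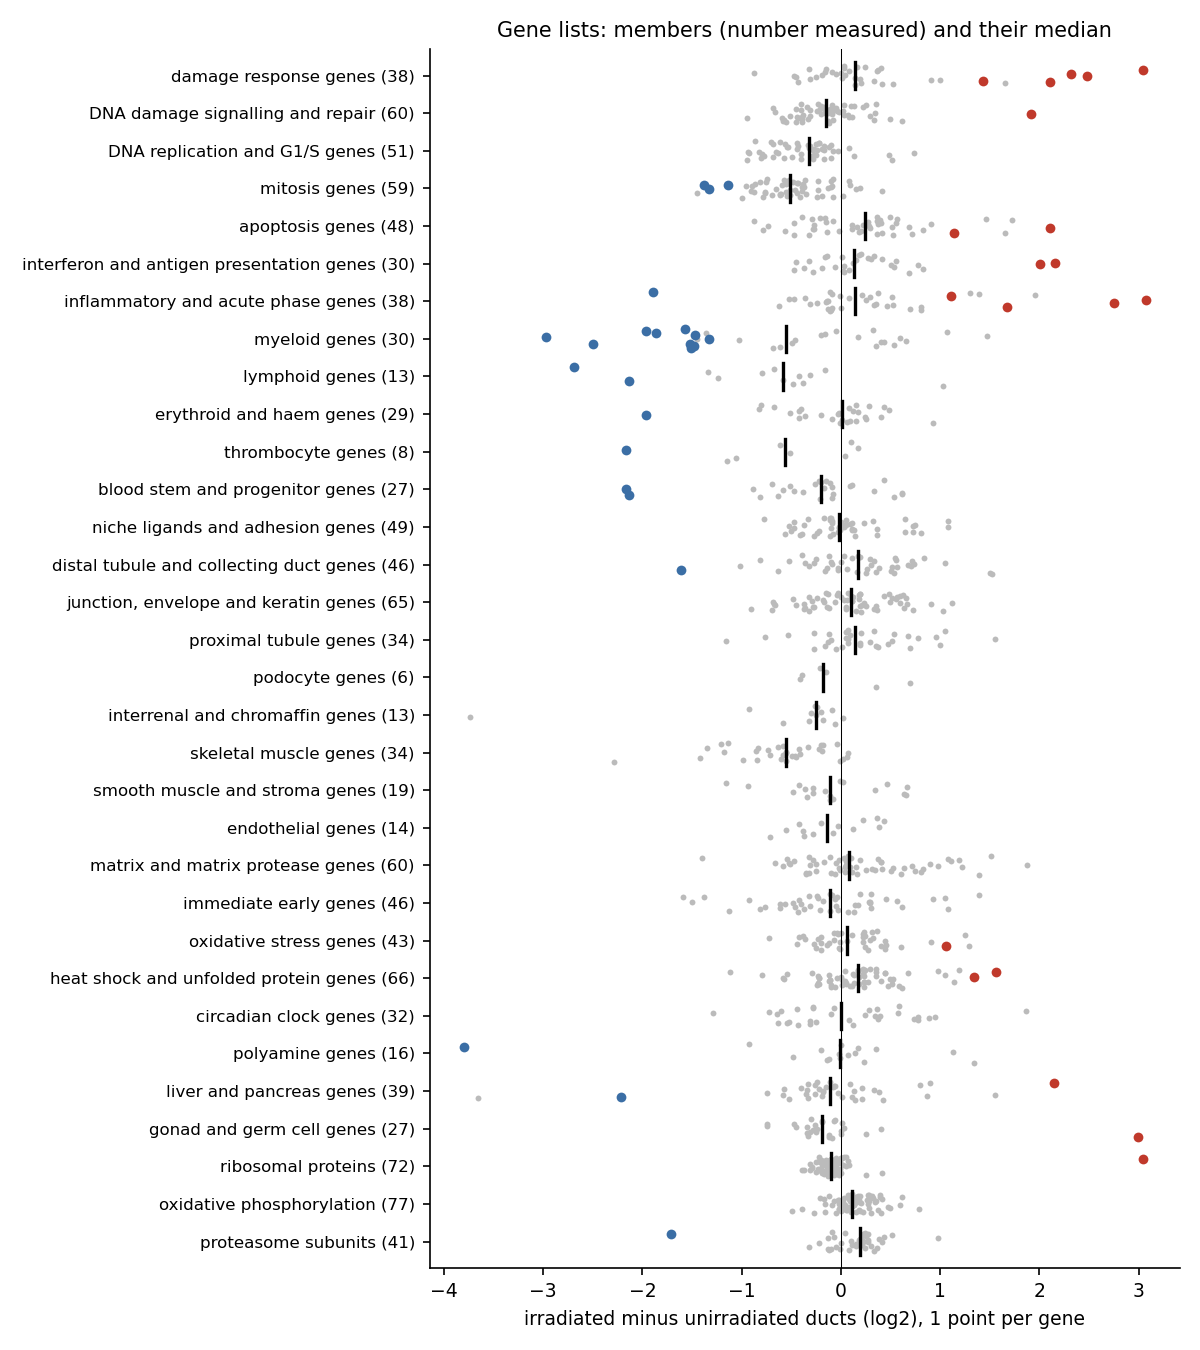
Differences between irradiated and unirradiated ducts (horizontal axis, log2) for the members of 32 gene lists, 1 point per gene, with the number measured in brackets and a black bar at the median. Red and blue points are members higher or lower at an adjusted p under 0.05, and blue points gather in the myeloid list, where 10 of 30 fell.

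The single largest fall among named genes lay in polyamine metabolism. The gene sat2a.2, which belongs to the spermidine/spermine acetyltransferase family, read 7.46 and 7.81 in unirradiated and 3.99 and 3.68 in irradiated ducts, with 3.68 and 4.05 in kidney. Irradiated ducts were thus at the level of kidney, under the array medians. The difference was -3.80 ± 0.19 (13.9-fold lower, adjusted p = 0.00959). Of 16 polyamine genes it was the only call, and the median was -0.01. The gene odc1, encoding the enzyme that starts polyamine synthesis, differed by 1.13 ± 0.28 (adjusted p = 0.110), and the arginase gene arg2 by 1.34 ± 0.25 (adjusted p = 0.0710).

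Several leading genes belong to none of the damage or blood lists. The gene bmb (brambleberry), required for nuclear fusion in the early fish embryo, rose from 5.26 and 5.13 to 7.85 and 8.52 (2.99 ± 0.25, adjusted p = 0.0177). It was the only call among 27 gonad and germ cell genes, whose median was -0.19. The somatostatin family gene sst2 rose from 4.76 and 4.84 to 6.71 and 7.19 (2.15 ± 0.20, adjusted p = 0.0212), and the steroid sulfatase gene sts from 4.89 and 4.63 to 6.66 and 7.09 (2.12 ± 0.20, adjusted p = 0.0225). The unirradiated levels of all 3 lay under the array medians. The leading rises closed with the heparan sulfate enzyme gene hs6st1b (1.93 ± 0.23), the matrix receptor gene dag1 (1.89 ± 0.22) and the membrane protein gene tm9sf3 (1.88 ± 0.21), with adjusted p between 0.0294 and 0.0352.

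Of 39 liver and pancreas genes, sst2 rose and apoc1 fell, with a median of -0.11. The apolipoprotein gene apoc1 went from 9.18 and 9.69 to 7.07 and 7.39 (-2.21 ± 0.23, adjusted p = 0.0251), while the kidney arrays differed widely at 7.70 and 12.39. A second apolipoprotein gene, apoa2, read 9.90 and 10.51 against 7.45 and 5.64 (-3.66 ± 0.59) and missed the threshold (adjusted p = 0.0569). The chromatin protein gene hmgb3a fell from 10.55 and 10.16 to 7.75 and 8.47 (-2.25 ± 0.28, adjusted p = 0.0364). Its other probe sets gave -1.06 ± 0.54 and -0.36 ± 0.21 and did not pass. The chromatin remodelling gene rsf1b.1 fell on both of its probe sets (-1.90 ± 0.26 and -1.68 ± 0.20). Both duct groups averaged under the array medians on each, and kidney read 3.77 and 6.69 on the first. The sulfotransferase gene sult2st1 closed the leading falls, from 11.08 and 11.19 to 9.65 and 8.85 (-1.89 ± 0.28, adjusted p = 0.0488).

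Further calls lay outside the lists and the leading genes, and those named here were chosen after their values were seen. In 59 of the 88 higher probe sets the kidney mean lay above the unirradiated duct mean, beside 48.8% of all probe sets tested. The calls share the unirradiated arrays with that comparison, which by itself favours kidney above ducts, so nothing is read from it. Both kidney arrays lay above both unirradiated duct arrays in 44 of the 88 and below them in 20. Genes among these 20 included uap1, znf503 and slc25a55b. The gene uap1, which makes the nucleotide sugar for glycan synthesis, rose from 8.83 and 8.67 to 10.10 and 10.35 (1.48 ± 0.16), with 7.53 and 6.92 in kidney. The zinc finger gene znf503 rose from 8.17 and 8.37 to 9.61 and 9.54 (1.31 ± 0.15), against 5.51 and 5.65 in kidney. The mitochondrial carrier gene slc25a55b rose from 7.19 and 6.90 to 8.47 and 8.66 (1.52 ± 0.17), against 4.85 and 5.49. For these 3 genes irradiated ducts were highest and kidney lowest, with no overlap of the 3 groups. The purine salvage gene hprt1 rose by 1.64 ± 0.18 and the ubiquitin conjugating gene ube2h by 1.14 ± 0.16.

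The same limit from shared arrays holds for the lower calls, where it favours kidney below ducts. In 53 of the 129 lower probe sets the kidney mean lay above the unirradiated duct mean, beside 48.8% of all probe sets tested. Both kidney arrays lay below both unirradiated duct arrays in 53 of the 129 and above them in 46. Genes among these 46 included igl1c1, vsir and nrros. The immunoglobulin light chain gene igl1c1 went from 6.05 and 6.54 to 4.70 and 4.47 (-1.71 ± 0.21), with 9.87 and 8.06 in kidney. The checkpoint receptor gene vsir went from 5.61 and 5.84 to 4.02 and 4.24 (-1.59 ± 0.17), and the macrophage gene nrros from 7.10 and 7.41 to 5.77 and 6.04 (-1.35 ± 0.18). In these 3 genes both kidney arrays lay above all duct arrays, and for vsir both duct groups averaged under the array medians. The growth factor binding gene crim1 fell from 8.01 and 7.98 to 6.11 and 6.25 (-1.81 ± 0.14), with 4.45 and 6.54 in kidney. The ferredoxin gene fdx1 fell from 10.95 and 11.08 to 9.62 and 9.14 (-1.64 ± 0.20).

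Probe sets of a gene did not always move together. In 30 cases a probe set past the threshold was not the one of highest mean for its gene, 21 higher and 9 lower. In 26 of the 30 the probe set of highest mean did not pass, and in 26 it had the same sign. Only the first probe set of each pair was chosen for passing, which by itself favours a smaller difference on the other. Cases where only the probe set of highest mean passed are not counted here. The genes named here were chosen after their values were seen. The calpain protease gene capn2l rose by 2.87 ± 0.15 on a probe set that went from 3.23 and 3.42 to 6.18 and 6.20, while its probe set of highest mean differed by 0.55 ± 0.22. The adaptor gene grb2b, which links receptors to Ras, gave 2.84 ± 0.24 and 1.52 ± 0.33 in the same order. The chromatin remodeller gene smarca4a gave 2.0 ± 0.28 and 0.36 ± 0.25, and the ubiquitin ligase gene huwe1 gave 1.85 ± 0.25 and 0.80 ± 0.28.

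Downward, the polarity scaffold gene erbin gave -2.75 ± 0.34 on the probe set that passed and 0.03 ± 0.22 on the other. The DNA topoisomerase gene top1a gave -1.72 ± 0.14 and 0.39 ± 0.28, so the sign differed between the probe sets. The mitotic phosphatase gene cdc25b gave -1.20 ± 0.16 and -0.60 ± 0.20. Of the 21 such probe sets that rose, 17 read lower on unirradiated replicate 2 than on replicate 1, and of the 9 that fell, 3 did. Among all probe sets tested the share was 48.5%. Examples are smarca4a at 5.94 and 5.16, grb2b at 7.65 and 6.98, and huwe1 at 4.86 and 4.16. The probe set of capn2l that passed went the other way, at 3.23 and 3.42. Without replicate 2 the differences of smarca4a, grb2b and huwe1 were 1.61, 2.5 and 1.5, and that of capn2l was 2.96.

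**Figure D5:**
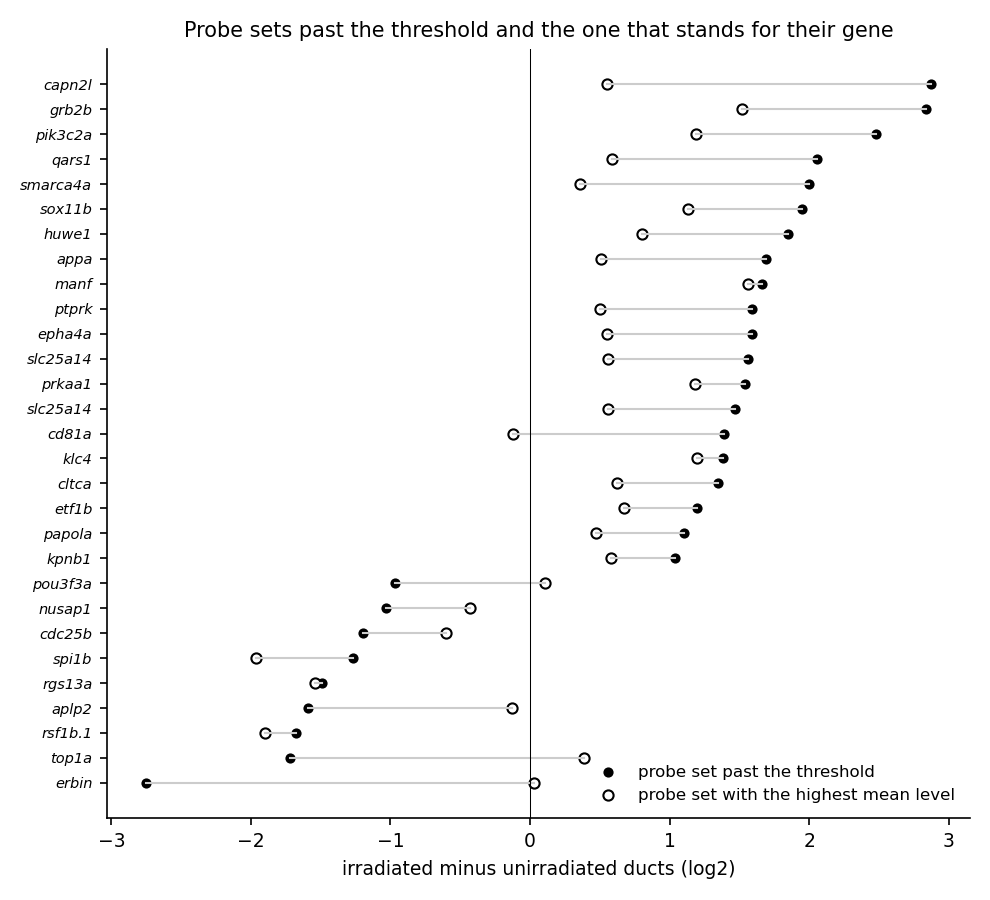
Differences between irradiated and unirradiated ducts (horizontal axis, log2) for 29 probe sets past the threshold (filled points) beside the probe set of highest mean of the same gene (open points). Open points mostly lie nearer to zero, as for capn2l at 0.55 against 2.87. Only the filled points were chosen for passing, which by itself favours larger values there.

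Unirradiated replicate 2 also stood apart in RNA ends. On the array's GAPDH controls the probe set at the 3' end exceeded the one at the 5' end by 1.16 and 2.52 in unirradiated and by 1.13 and 0.97 in irradiated ducts, on the log2 scale. On the acta1 controls the gap was 2.12 and 3.82 against 2.88 and 1.28. Unirradiated replicate 2 had the widest gap on both. Of the 88 probe sets that were higher after irradiation, 71.6% read lower on unirradiated replicate 2 than on replicate 1, beside 48.5% of all probe sets tested. Of the 129 lower ones it was 40.3%. The part of RNA ends in the calls was not tested.

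Many of the changes could not be given a gene. Of the probe sets past the threshold, 19 of the higher and 61 of the lower had no gene symbol in the platform annotation. The largest difference each way among all probe sets past the threshold was among them. A probe set without a symbol went from 9.22 and 8.83 to 12.52 and 12.15, a difference of 3.31 ± 0.21 (adjusted p = 0.0114). Another went from 8.88 and 9.53 to 5.52 and 4.56, a difference of -4.16 ± 0.37 (adjusted p = 0.0209). In both cases the irradiated arrays lay outside the range of the unirradiated ones, as in all calls.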

How the data were processed

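Total RNA was labelled with a 3' in vitro transcription kit and hybridised to zebrafish expression arrays. The authors deposited log2 values. Per the submitters' processing notes, RMA and the package affy were used, with no version. No scanner files were used here. RMA corrects background, normalises quantiles across the arrays and summarises probes, so whole-array shifts in RNA content are removed. The arrays' 115 control probe sets, out of 15617, did not enter any test. Gene symbols came from the platform annotation, with 38 updated through a current gene table. Of the tested probe sets 10795 named 1 gene, 135 several and 4572 none.

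Irradiated and unirradiated ducts were compared on the 4 duct arrays by limma 3.58.1 under R 4.3.3. The fit held a mean for each group and left 2 residual degrees of freedom. Two-sided tests were used, with Benjamini-Hochberg adjustment over 15502 probe sets. SE is the moderated standard error. The fit was tested on simulated data. For genes with several probe sets, the set with the highest mean over the duct arrays stood for the gene. The text names mdm2, f11r.1, the 15 largest changes each way among named genes past the threshold with at least 2-fold change and no overlap, and up to 5 members of each of 32 gene lists, those past the threshold first. Genes with calls beyond the fifth of a list, a list's extreme members, and list members given as contrasts or as near misses were chosen after their values were seen. The lists held 1865 entries and 3 name patterns, and 822 entries had no probe set with that name. The comparison and the lists were chosen with earlier results of these data known, so no count is independent support. Lists were described by counts and medians, with no set test.

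The sample titles share replicate numbers. Alternatives were all 6 arrays in 1 fit, the replicate number as a block, array weights, a trend with robust eBayes, only probe sets with a mean log2 of at least 6, centring on 9 hybridisation controls, leaving out each duct array, and the mean over a gene's probe sets. With 2 arrays in a group, p-values measure the spread between those pools.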

Additional observations from a re-analysis of the deposited data

How the results depend on the processing

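With 2 pools in a group, p-values rest on the spread between 2 arrays and on what limma borrows from other probe sets. Against the 217 calls, 26 passed with all 6 arrays in 1 fit, 34 with the replicate block and 65 of 7354 probe sets with a filter at a mean log2 of 6. The count ran from 0 to 592 when a duct array was left out, the lowest without either unirradiated replicate and 551 without irradiated replicate 2. It was 308 with a trend and robust fit and 205 with array weights. Same-numbered arrays did not deviate together (correlation -0.0976), so the numbers were not taken to pair the samples. For mdm2 the difference ran from 2.33 to 2.64 when an array was left out, and it missed the threshold without unirradiated replicate 1 and without unirradiated replicate 2. Both of those fits took their spread from the 2 irradiated arrays alone, besides what limma borrows. The cause of the missed threshold was not tested.

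Of 65 genes named above as past the threshold, 54 lost the call with all 6 arrays, 52 with the block and 65 without either unirradiated array, and none of the 65 turned in sign in these fits. Leaving out a duct array turned the sign of 3 or 4 of the 32 list medians, and the filter turned 4. The medians of the apoptosis and interferon lists ran from 0.10 to 0.31 and from 0.01 to 0.27 when an array was left out.

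Centring on hybridisation controls gave 14759 calls and 13269 probe sets changed at least 2-fold without overlap, and by its construction turned values between -1.39 and 0 upward. That fit used 1 common spread for all probe sets, so its number of calls does not compare with the main one. The centred differences of single genes follow. Centring gave 0.01 for mki67, 0.03 for ptpn6, 0.04 for nrros, 0.06 for incenp, 0.06 for lcp1 and 0.25 for mad2l1. It gave 0.44 for ccna2, 0.44 for fanci, 0.45 for mcm4, 0.50 for jam2a, 0.51 for pmaip1 and 0.58 for cbfb. It gave 0.62 for vegfc, 0.71 for rpa2, 0.79 for the probe set of highest mean of cdc25b (0.19 for the one past the threshold), 1.36 for cxcl12a and 1.37 for klf1. Genes near zero also turned when a duct array was left out. The values ran from -0.11 to 0.05 for cxcl12a, from -0.45 to 0.48 for gadd45ba, from -0.51 to 0.47 for klf1, from -0.57 to 0.91 for marco and from -0.03 to 0.42 for rhcgb. The mean over its probe sets gave 0.12 for cxcl12a.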
